A study of Mus musculus with 12 samples.

Results

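The 10 genes described here encode neuropeptide precursors of the amygdala, namely Sst, Npy, Vip, Cck, Tac1, Tac2, Nts, Grp, Cartpt and Adcyap1. They were chosen by symbol through the GENCODE M21 annotation, and each had a row among the 47729 genes of the deposited table. All 10 passed the filter on low values and were tested among 26963 genes. The samples were bilateral amygdalae of female C57/BL6 mice, an inbred strain, genetically unmodified and with no treatment named beyond the behavior tests. The mice were age-matched and took the elevated plus maze (EPM) at 9 weeks of age, the light/dark box (LD) at 10 weeks and a social interaction test (SIT) at 11 weeks, and each mouse gave 1 mRNA library. The labels named 3 mice less anxious (mice 3, 7 and 12), 4 anxious (mice 1, 4, 8 and 11) and 4 more anxious (mice 2, 6, 9 and 10), and gave no group to mouse 5. The study set mouse 5 aside because it stood apart in a principal component analysis of the expression data. These groups are predicted states. The study cut them as tertiles of the second principal component of the same expression data. A difference between groups is therefore not independent of the expression values, whereas the behavior measures were taken before dissection. The study used the second principal component as a stand-in for the LD and EPM measures, with which it was highly correlated. The groups are therefore not independent of those measures either. Group and behavior did not always go together. More anxious mouse 6 had the highest time in the light (46.6%), distance in the light (41.9%) and open-arm time (29.2%) of the 11 mice.

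Neuropeptides are cut from larger precursor proteins, stored in dense-core vesicles and released to act on G-protein-coupled receptors of nearby and distant neurons. In the amygdala, somatostatin (Sst), neuropeptide Y (Npy), vasoactive intestinal peptide (Vip) and cholecystokinin (Cck) mark classes of GABAergic interneurons, and Cck is also made by many excitatory neurons. Tachykinins (Tac1, Tac2), neurotensin (Nts), gastrin-releasing peptide (Grp), CART (Cartpt) and PACAP (Adcyap1) are made by projection neurons or by restricted cell groups, and several of these peptides are known for effects on fear and anxiety. The values below are levels of precursor mRNA in whole dissected tissue. In such bulk tissue, fewer cells of a type and less RNA per cell cannot be told apart.

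Libraries held between 31745630 and 45142355 estimated counts, and a member had between 282 counts (Grp) and 20773 counts (Sst) in a mouse. Levels are given as CPM, read counts scaled to library size with TMM factors. The defining markers of inhibitory neurons (12 of 12 genes) and excitatory neurons (8 of 8) were present, with summed levels of 1318 to 1788 CPM and 3385 to 5330 CPM. Summed markers of neighboring tissue differed between mice. Striatal markers (8 genes) ran from 293 CPM in mouse 11 to 981 CPM in mouse 12, and pituitary markers (8 genes) were at 58.1 CPM in mouse 4 and 18.8 CPM in mouse 11 but at most 6.50 CPM in the others. Penk is on both the striatal list and the list of central amygdala markers (8 genes). It had group means of 404, 222 and 284 CPM in less anxious, anxious and more anxious mice. The central amygdala sum ran from 400 CPM in mouse 8 to 940 CPM in mouse 7, with 926 CPM in mouse 12. Whether a high striatal sum came from striatal or central amygdala tissue was not tested.

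Promoter sequences were read for 9 members. The cAMP response element (CRE), the site of CREB-family factors that was first described in the somatostatin promoter, was searched as TGACGTCA and its core as TGACG on both strands (CGTCA on the other). The core lies within the CRE, so a CRE also counts as a core. In the 250 bases before the RefSeq start site (RefSeq sequences, build GRCm38.p6), 2 of the 9 members, Sst and Cartpt, held the full CRE, compared with 1.55% of 32851 promoter windows, and 7 held the core, compared with 17.8% of those windows. Npy and Tac2 had no match in this window. The stretches of 30 bases around the match nearest to the start site are shown to compare the members, with the match in capitals and all written 5′ to 3′ in the direction of transcription. They lie at chr16:23890874-23890903 (Sst, minus strand), chr13:99900777-99900806 (Cartpt, minus strand), chr9:121495724-121495753 (Cck, minus strand), chr10:5639127-5639156 (Vip, plus strand), chr6:7555006-7555035 (Tac1, plus strand), chr10:102490567-102490596 (Nts, minus strand) and chr17:93198914-93198943 (Adcyap1, plus strand). The matches began at positions -48, -112, -47, -79, -43, -166 and -91, in the same order, counted back from -1, the base before the start site. For Adcyap1, with 2 RefSeq start sites, the upstream site was used. In GENCODE M21 the stretches of Sst, Cartpt and Tac1 lie within the gene (chr16:23889573-23890958, chr13:99898489-99901091 and chr6:7554879-7565834), each in an exon of 1 annotated transcript. Those of Cck, Vip, Nts and Adcyap1 lie outside the annotated gene.
Sst: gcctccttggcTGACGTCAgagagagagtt
Cartpt: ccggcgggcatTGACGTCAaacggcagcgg
Cck: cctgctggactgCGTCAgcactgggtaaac
Vip: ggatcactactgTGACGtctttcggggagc
Tac1: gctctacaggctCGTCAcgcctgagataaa
Nts: attagggaagatCGTCActttccatcaagg
Adcyap1: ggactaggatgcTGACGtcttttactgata

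The whole 250-base windows are given for Cck and Vip, the members with the lowest p-values against the groups and against behavior. The Cck window lies at chr9:121495695-121495944 on the minus strand and the Vip window at chr10:5638968-5639217 on the plus strand, with the core in capitals. Both windows lie just upstream of the GENCODE M21 genes, which are protein coding and span chr9:121489824-121495694 (Cck) and chr10:5639218-5647617 (Vip).
Cck: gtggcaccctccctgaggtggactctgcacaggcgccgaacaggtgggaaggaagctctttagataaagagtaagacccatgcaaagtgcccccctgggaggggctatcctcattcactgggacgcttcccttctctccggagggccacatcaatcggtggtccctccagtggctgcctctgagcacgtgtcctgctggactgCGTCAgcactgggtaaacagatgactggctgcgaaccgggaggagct
Vip: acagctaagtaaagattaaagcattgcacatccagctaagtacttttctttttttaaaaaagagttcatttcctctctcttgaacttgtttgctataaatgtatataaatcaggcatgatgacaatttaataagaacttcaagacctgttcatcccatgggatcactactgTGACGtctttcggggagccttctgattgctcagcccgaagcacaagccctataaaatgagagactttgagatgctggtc
A match describes the letters only, and binding was not measured.

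Per kilobase of merged exon, Sst was the most abundant member (447 ± 123 CPM per kb, SD over 11 mice). Cck (137 ± 44.5) and Npy (96.1 ± 19.0) came next on this scale. A gap followed, with Nts at 15.5 ± 4.44, Cartpt at 11.7 ± 5.35, Tac2 at 11.1 ± 3.81, Tac1 at 9.35 ± 3.02, Grp at 9.20 ± 2.72, Vip at 7.47 ± 1.30 and Adcyap1 at 7.24 ± 2.25 CPM per kb. The ranges over mice did not overlap between Sst and Cck or between Npy and Nts, while every other pair of neighbors in this order overlapped. Cck was above Npy in 9 of 11 mice. The order below Npy depended on the length used, and merged exons were longest in Adcyap1 (3777 bp), Vip (3402 bp) and Tac1 (3399 bp). In CPM without division by length, Tac1 (31.8), Adcyap1 (27.3) and Vip (25.4) were above Nts (19.3), Tac2 (15.3), Cartpt (15.0) and Grp (13.6). The members varied between mice with a coefficient of variation from 17.5% (Vip) to 45.7% (Cartpt), compared with a median of 12.5% over 12159 genes with a mean of at least 5 CPM.

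**Figure D1:**
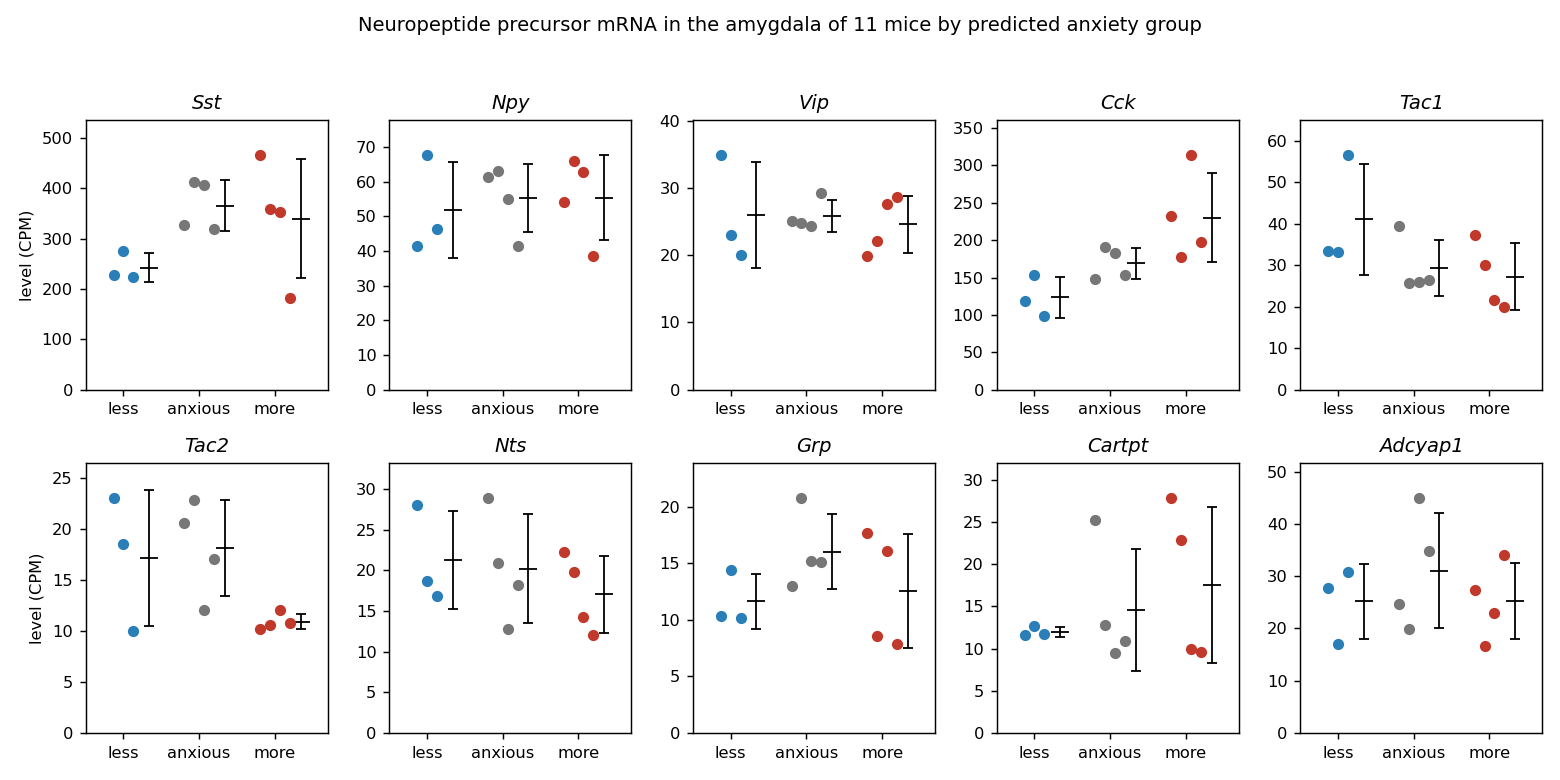
Level of each precursor mRNA (CPM, linear axis from 0) in 3 less anxious (blue), 4 anxious (gray) and 4 more anxious (red) mice, where each point is 1 mouse and the black mark and bar give the group mean and SD. Cck in the more anxious mice (177 to 314 CPM) lay above all less anxious mice (98.9 to 154 CPM). For the other 9 genes the less and more anxious mice overlapped.

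Across the 3 groups, 0 of the 10 members passed an adjusted p of 0.05 in edgeR's quasi-likelihood test with PC1, the score on the leading principal component of the expression data, as covariate (Benjamini-Hochberg over all genes tested), where 0.00742% of all genes passed. At an unadjusted p under 0.05, 2 members (Cck and Tac2) were counted, compared with 6.35% of all genes. DESeq2's likelihood ratio test of the same model, the tool the study names, called 1 member, Cck, and 0.539% of all genes. The median log2 difference between more and less anxious mice was 0.05 over the members and 0.00 over all genes tested.

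Cck, which encodes cholecystokinin, had the largest difference of the 10. The less anxious mice had 118, 154 and 98.9 CPM (mice 3, 7 and 12). The anxious mice had 149, 191, 183 and 154 CPM (mice 1, 4, 8 and 11), and the more anxious mice had 232, 177, 314 and 198 CPM (mice 2, 6, 9 and 10). Each more anxious mouse was above each less anxious mouse, a separation that was also present, in either direction, in 10.0% of genes with a mean of at least 1 CPM. The anxious mice lay between, overlapping the more anxious mice and, in mouse 1, the less anxious ones. The log2 difference was 0.89 ± 0.21 (SE), with an unadjusted p of 0.00388 and a Benjamini-Hochberg adjusted p of 0.504 in edgeR, and an adjusted p of 0.0119 in DESeq2. Without any mouse in turn the log2 difference stayed between 0.65 (without mouse 9) and 1.14 (without mouse 7), and over 9 other settings the adjusted p ran from 0.0119 to 1.

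The balance of GC-rich against GC-poor genes, as the median log2 deviation of the most GC-rich 25% of genes minus that of the most GC-poor 25%, differed between libraries. It was lowest in less anxious mice 3 (-0.32) and 12 (-0.15) and highest in more anxious mouse 9 (0.20), while less anxious mouse 7 was at 0.10. With this balance as a further covariate, chosen after seeing the data, the Cck difference was 0.44 ± 0.17 with an adjusted p of 1 in edgeR. With the corresponding balance of long against short genes, which was highest in mouse 12 (0.18) and lowest in mouse 8 (-0.17), it was 0.52 ± 0.22 with an adjusted p above 0.999. Markers of excitatory neurons, a class of cells that makes Cck, had a median log2 difference of 0.54, and edgeR called 0 of 8. At an unadjusted p under 0.05, 4 of 8 were above 0, compared with 1064 of all 26963 genes tested. The part of the excitatory markers in the Cck values was not tested.

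**Figure D2:**
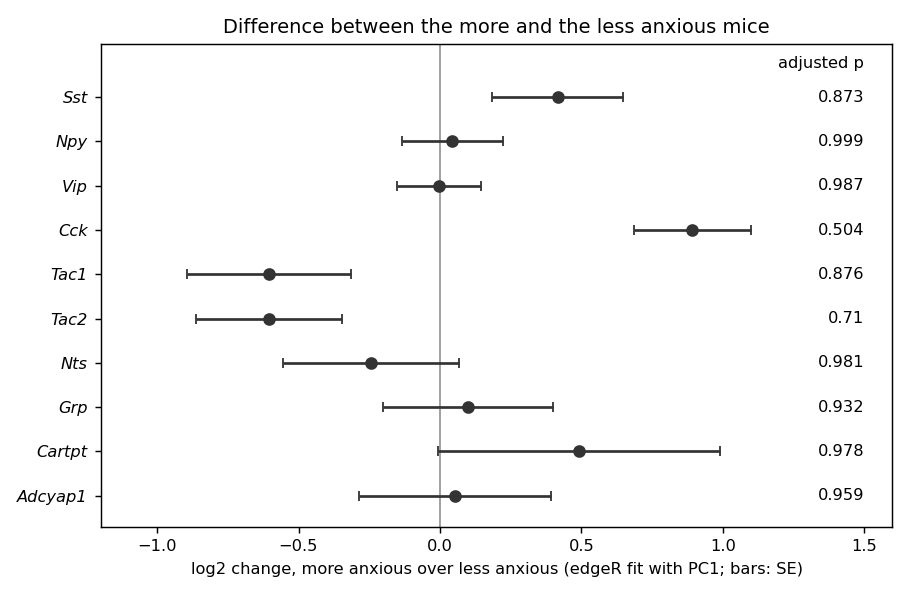
Log2 difference between more and less anxious mice for each member (edgeR fit with PC1 as covariate, bars give 1 SE), with the Benjamini-Hochberg adjusted p over all genes at the right. Cck stands furthest from 0 at 0.89 and Tac1 and Tac2 both lie at -0.60, and no adjusted p is under 0.504.

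Among the other interneuron peptides, Sst inhibits hormone release and marks dendrite-targeting interneurons and many central amygdala neurons. Its levels were 228, 275 and 224 CPM in the less anxious mice (mice 3, 7 and 12). The anxious mice had 327, 412, 406 and 318 CPM (mice 1, 4, 8 and 11), above all less anxious mice. The share of all genes that separate these groups was not computed. The more anxious mice had 466, 360 and 352 CPM in mice 2, 6 and 9 but 182 CPM in mouse 10, the lowest of all 11. The groups of less and more anxious mice therefore overlapped through mouse 10. The log2 difference was 0.42 ± 0.23 with an adjusted p of 0.873 in edgeR. It was 0.25 without mouse 2 and 0.64 without mouse 10 (adjusted p = 0.317 in edgeR).

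Npy, often made in the same neurons as Sst and known as an anxiety-reducing peptide, had nearly the same mean in each group, 51.8 ± 13.9 CPM in less anxious, 55.3 ± 9.88 CPM in anxious and 55.4 ± 12.3 CPM in more anxious mice (SD). It ran from 38.6 CPM in mouse 10 to 67.7 CPM in mouse 7, and both ends of the range lay in the outer groups. The log2 difference was 0.04 ± 0.18 (adjusted p = 0.999 in edgeR). Vip, made by interneurons that inhibit other interneurons, had group means of 26.0 ± 7.83, 25.8 ± 2.31 and 24.6 ± 4.23 CPM in the same order. Its highest mouse, mouse 3 (34.8 CPM), was less anxious and its lowest, mouse 2 (19.9 CPM), more anxious, but less anxious mouse 12 had 20.1 CPM. Its log2 difference was -0.00 ± 0.15 (adjusted p = 0.987), the smallest of the members.

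Both tachykinin genes had a negative log2 difference. Tac2, the precursor of neurokinin B, was at 23.0, 18.5 and 9.96 CPM in less anxious mice 3, 7 and 12. The anxious mice had 20.6, 22.8, 12.1 and 17.1 CPM (mice 1, 4, 8 and 11), and the more anxious mice had 10.2, 10.6, 12.0 and 10.8 CPM (mice 2, 6, 9 and 10). The more anxious mice thus lay within 2 CPM of each other, and mouse 12 kept the less anxious mice from standing apart. The log2 difference was -0.60 ± 0.26, with an unadjusted p of 0.0264 and an adjusted p of 0.71 in edgeR. It was -0.38 without mouse 3, -0.32 without mouse 7 and -0.88 without mouse 12 (adjusted p = 0.360 in edgeR).

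Tac1, the precursor of substance P and neurokinin A, was at 33.5, 33.3 and 56.5 CPM in less anxious mice 3, 7 and 12. It was at 39.6, 25.8, 25.9 and 26.3 CPM in anxious mice 1, 4, 8 and 11, and at 37.2, 30.1, 21.6 and 19.9 CPM in more anxious mice 2, 6, 9 and 10. Mouse 12 was highest by a wide margin and mouse 10 lowest, and the groups overlapped. The log2 difference was -0.60 ± 0.29 (adjusted p = 0.876 in edgeR). It was -0.31 ± 0.27 without mouse 12, -0.29 ± 0.36 with the GC balance and -0.20 ± 0.32 with the length balance as covariate. Tac1 is also made by striatal projection neurons, and the sum of 8 striatal markers was highest in mouse 12 (981 CPM) with 757 CPM in mouse 7 and 368 CPM in mouse 3. The same sum ranged from 293 to 599 CPM in the anxious mice, highest in mouse 1. In more anxious mice 2, 6, 9 and 10 it was 375, 723, 524 and 398 CPM. Mouse 2 thus had the lowest sum but the highest Tac1 of the more anxious mice. None of the 8 was at 0, and 1 of them, Penk, is also on the central amygdala list. The part of these markers in the Tac1 values was not tested.

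Nts, the precursor of neurotensin, had 28.1, 18.7 and 16.8 CPM in the less anxious mice (mice 3, 7 and 12) and means of 20.2 ± 6.69 CPM in anxious and 17.1 ± 4.72 CPM in more anxious mice. The 3 groups overlapped, and the log2 difference was -0.24 ± 0.31 (adjusted p = 0.981 in edgeR). Grp, a bombesin-like peptide made by excitatory neurons, was at 11.7 ± 2.42 CPM in less anxious, 16.1 ± 3.30 CPM in anxious and 12.6 ± 5.06 CPM in more anxious mice. The more anxious mice split into 17.7 and 16.1 CPM (mice 2 and 9) and 8.60 and 7.84 CPM (mice 6 and 10), so they lay on both sides of the less anxious mice. Its log2 difference was 0.10 ± 0.30 (adjusted p = 0.932). The antisense gene AC152076.4 overlaps Grp, and whether the counting used strand is not stated, so reads of that gene may be included.

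Cartpt, which encodes the CART peptide, was the most variable member. The less anxious mice were close together at 11.6, 12.7 and 11.8 CPM (mice 3, 7 and 12). Anxious mouse 1 had 25.3 CPM and more anxious mice 2 and 6 had 27.8 and 22.9 CPM, while the other anxious mice (9.46 to 12.7 CPM) and more anxious mice 9 and 10 (10.0 and 9.57 CPM) were near or below the level of the less anxious mice. The 3 high mice thus came from 2 groups, and the log2 difference was 0.49 ± 0.50 (adjusted p = 0.978 in edgeR). It was 0.18 without mouse 2, 0.76 without mouse 9 and 0.74 without mouse 10. With the GC balance as a covariate it was 1.06 ± 0.56, with an adjusted p of 1, and with the length balance 1.03 ± 0.57. Adcyap1, the precursor of PACAP, a peptide of the stress response, was at 25.2 ± 7.22 CPM in less anxious, 31.1 ± 11.1 CPM in anxious and 25.2 ± 7.31 CPM in more anxious mice. It was highest in anxious mouse 8 (44.9 CPM) and lowest in more anxious mouse 6 (16.7 CPM), and its log2 difference was 0.05 ± 0.34 (adjusted p = 0.959).

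The behavior measures allow a comparison with values that the expression data did not set. The groups, however, rest on a component chosen for its correlation with the LD and EPM measures. Slopes on those measures are thus not separate from the group differences. Slopes are given as the log2 change in a member per SD of the measure, fitted by edgeR without covariate, with 11 mice (10 at 3 min of the SIT, where mouse 4 had no value). None of the 70 slopes passed an adjusted p of 0.05. The share of all genes that did was 0.00742% for time in the light, 0% for distance in the light, 0% for time on the open arms, 0% for total entries and, for the box:zone ratio, 0.015% (3 min), 0.0111% (5 min) and 0.0223% (10 min). DESeq2 called 2 of the 70 relations, both of Vip, at 5 and 10 min of the SIT. The share of all genes it called was 0.0145% for time in the light, 0.0637% for distance, 0.125% for open time, 0.11% for entries and 0.482%, 0.125% and 0.322% for the ratio at 3, 5 and 10 min. At an unadjusted p under 0.05, edgeR counted 12 of 70 relations (17.1%), against 6.35% of the relations of all genes. Pearson's r was 0.6 or more in size in 6 of the 70 relations (8.57%), compared with 8.09% over genes with a mean of at least 5 CPM. The 12 relations that edgeR counted at an unadjusted p under 0.05 came from 1 of 10 members for time in the light (3.55% of all genes) and 2 for distance in the light (5.8%). They came from 1 member for open time (5.84%) and 3 for total entries (6.97%). For the SIT they were 1 member at 3 min (7.65%), 2 at 5 min (6.56%) and 2 at 10 min (8.05%). The measures of a test were taken on the same mice and are related to each other, so the relations of a gene are not independent.

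**Figure D3:**
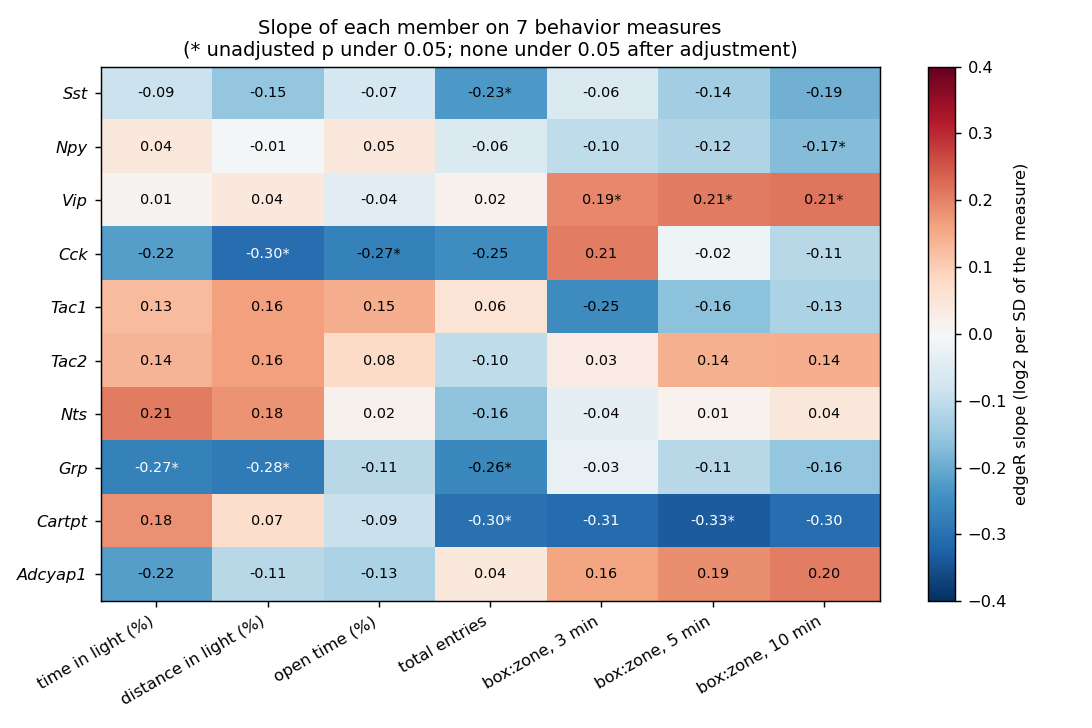
Slope of each member (rows) on 7 behavior measures (columns) as the log2 change per SD of the measure from edgeR, with red above and blue below 0 and a star where the unadjusted p was under 0.05. The stars of Vip, at 0.19 to 0.21, all belong to the SIT, and those of Cck (-0.30 and -0.27) to the LD and EPM.

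Vip had the smallest p-values of the members against behavior, all of them in the SIT. In this test a mouse meets an unfamiliar mouse held in a small cup, and the box:zone ratio sets direct approach (box) against more distant stay (zone). Mouse 3 had both the highest ratio at 10 min (2.62) and the most Vip (34.8 CPM), and mouse 2 the lowest of both (0.495 and 19.9 CPM). Mice 11, 10 and 9 followed with ratios of 1.39, 1.50 and 1.20 and Vip at 29.3, 28.6 and 27.7 CPM. Mouse 8 was the main departure, with a ratio of 1.58 and 24.3 CPM. The slope at 10 min was 0.21 ± 0.05 with an unadjusted p of 0.000289 and a Benjamini-Hochberg adjusted p of 0.204 in edgeR, and the adjusted p was 0.00323 in DESeq2. Pearson's r was 0.87 (two-sided permutation p = 0.00045) and Spearman's rho was 0.77 (p = 0.00717). Without the 2 mice farthest from the median ratio r was 0.71, and without any mouse in turn it ran from 0.77 to 0.91.

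At 5 min the slope of Vip was 0.21 ± 0.05 (adjusted p = 0.424 in edgeR and 0.0269 in DESeq2), with r = 0.84 (permutation p = 0.00104). At 3 min it was 0.19 ± 0.06 (adjusted p = 0.413 in edgeR and 0.151 in DESeq2), with r = 0.73 (permutation p = 0.0184). Against the measures of the EPM and LD the slopes of Vip lay between -0.04 and 0.04. The relation at 10 min had a slope of 0.22 with the GC balance, 0.21 with the length balance, 0.18 with PC1 and 0.19 with mouse 5 added, and edgeR's adjusted p was 0.175 or more in these fits. Without mouse 3 the slope was 0.24 and its adjusted p 0.999. Over the 9 other settings the adjusted p ran from 0.00323 (DESeq2) to 0.926 (ranks in place of the ratio).

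**Figure D4:**
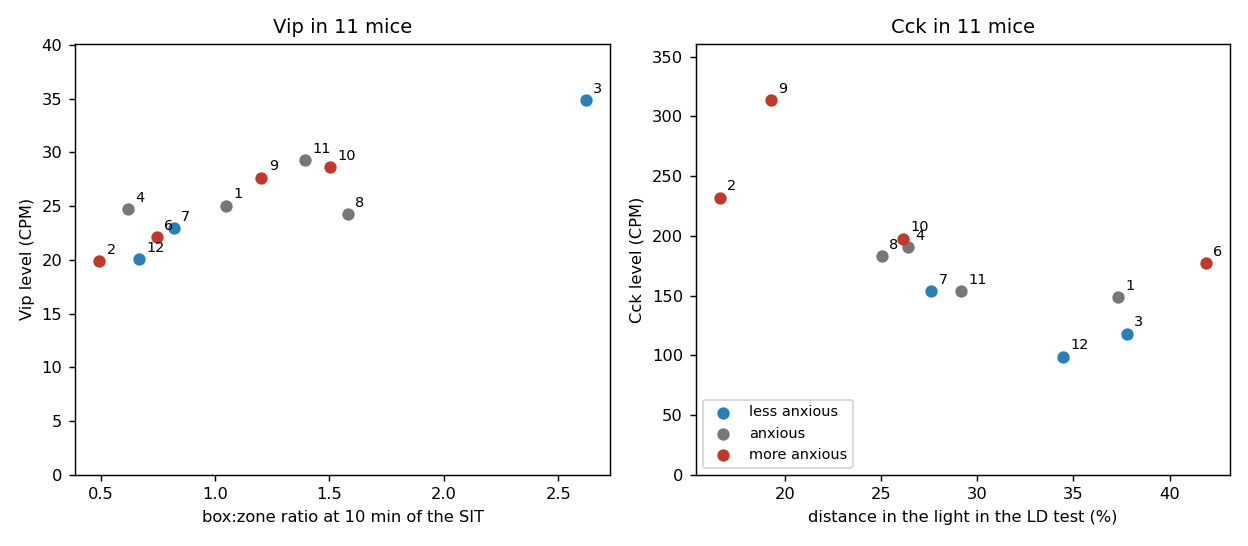
Left, Vip (CPM) against the 10-min box:zone ratio, and right, Cck (CPM) against distance in the light (% of the LD total), where each numbered point is 1 mouse colored by group. Mouse 3 sits at the top right for Vip (ratio 2.62, 34.8 CPM), and mice 9 and 2 at the top left for Cck (314 and 232 CPM).

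The slopes of Cck on all 4 measures of the LD and EPM were negative, from -0.30 to -0.22. The slope on distance in the light (%) was -0.30 ± 0.09, with an unadjusted p of 0.00455 and an adjusted p of 0.805 in edgeR. Pearson's r was -0.71 (two-sided permutation p = 0.0142), Spearman's rho was -0.79 (p = 0.00541), and r was -0.87 without the 2 mice farthest from the median distance. The mice with the shortest distance in the light, mouse 2 (16.6%) and mouse 9 (19.3%), had the most Cck, and mouse 6, with the longest (41.9%), had 177 CPM, the median of the 11 mice. On open time it was -0.27 ± 0.10 (adjusted p = 0.756), with r = -0.60 (permutation p = 0.0482). With mouse 5 added the slopes were -0.21 (unadjusted p = 0.0863) and -0.23 (unadjusted p = 0.0774). With the length balance as covariate they were -0.17 and -0.14.

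Grp had negative slopes on time in the light (-0.27 ± 0.10), distance in the light (-0.28 ± 0.10) and total entries (-0.26 ± 0.11), each with an unadjusted p under 0.05 and an adjusted p of at least 0.677 in edgeR. Its Pearson's r with distance was -0.62 (permutation p = 0.0448) and was -0.41 without the 2 farthest mice. Sst had a slope of -0.23 ± 0.10 and Cartpt a slope of -0.30 ± 0.13 on total entries (adjusted p = 0.691 and 0.712), and r for Cartpt turned from -0.54 to 0.38 without mice 1 and 2. Cartpt also had a slope of -0.33 ± 0.15 on the 5-min box:zone ratio (adjusted p = 0.745) and Npy a slope of -0.17 ± 0.07 at 10 min (adjusted p = 0.560). Tac1, Tac2, Nts and Adcyap1 had no slope with an unadjusted p under 0.05. The nearest was Tac1 at 3 min, with -0.25 ± 0.12 (unadjusted p = 0.0585). With mouse 5 added, edgeR counted 6 of 70 relations (8.57%) at an unadjusted p under 0.05, compared with 5.18% of the relations of all genes, and 3 of the 6 were the Vip relations.

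Relations among the members were compared with those among other genes. Over 45 pairs the median size of Pearson's r of log2 CPM was 0.34, compared with 0.27 over all pairs of genes with at least 5 CPM, and 6 pairs (13.3%) reached 0.6 in size, compared with 9.99% of all pairs. The values share libraries and depth and are given as a description. Sst and Grp had the highest r (0.75), which was 0.54 without mice 10 and 12. Sst and Npy had an r of 0.63 (0.36 without mice 10 and 12). Nts went with Cartpt (r = 0.65) and with Tac2 (r = 0.62). Npy and Adcyap1 were opposed (r = -0.70, and -0.62 without mice 10 and 11), as were Cck and Tac1 (r = -0.69, but -0.29 without mice 9 and 12).

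**Figure D5:**
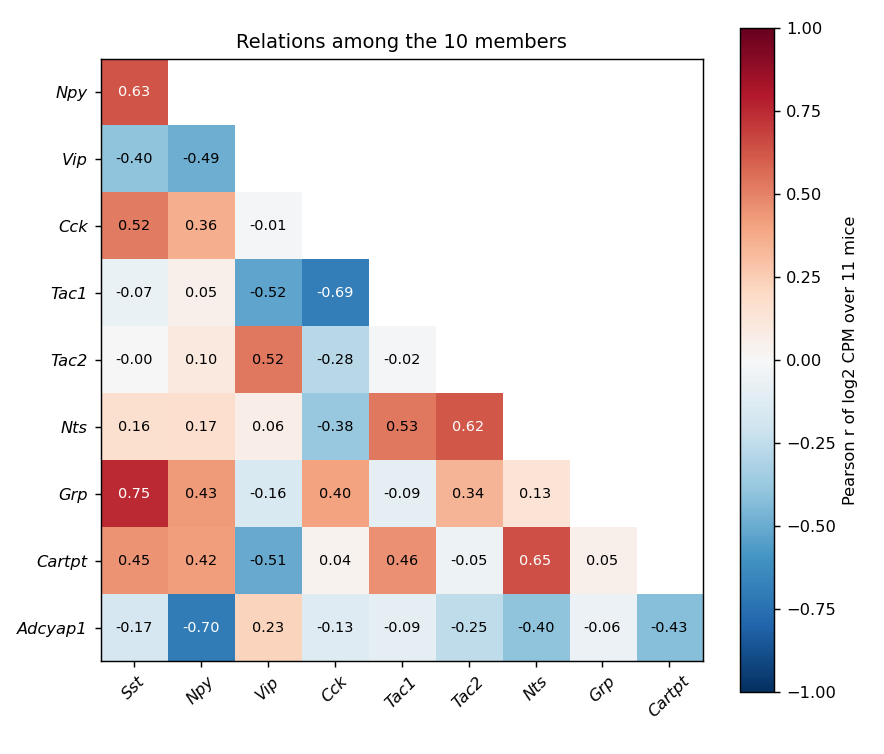
Pearson's r of log2 CPM over 11 mice for each of the 45 pairs of members, red for positive and blue for negative values. The strongest cells are Sst with Grp (0.75), Npy with Adcyap1 (-0.70) and Cck with Tac1 (-0.69).

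Among 12159 genes with a mean of at least 5 CPM, the gene whose log2 level was most like that of Cck over the 11 mice was Mrps24 (r = 0.97), a mitochondrial ribosomal protein gene, followed by the histone genes H2afj and H2afx (both 0.95). For Sst they were Pafah1b3 (0.96), Hps6 (0.92) and Caskin1 (0.92), and for Npy they were Arsa (0.91), Fbxw8 (0.90) and Rps12 (0.89). Vip was most like Arl4a (0.94), Ppp3cb (0.92), a catalytic subunit of calcineurin, and Rnf111 (0.89). Tac1 was most like Gprin3 (0.93), Rnpc3 (0.92) and Pde1c (0.90), and Tac2 most like Cdk14 (0.96), Pter (0.94) and Zfp831 (0.90). For Nts the nearest were Chst10 (0.93), Sox1ot (0.90) and Dubr (0.90). Cartpt was nearest to Cacng2 (0.92), Ucn3 (0.88), which encodes urocortin 3, and Gm43660 (0.87). Adcyap1 was nearest to Pspc1 (0.87) and Fancm (0.85), and Grp to Pxdn (0.95), Kifc3 (0.94) and Fezf2 (0.90), a transcription factor of deep-layer and basolateral excitatory neurons. Each value is the highest of many and describes these 11 mice only.

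The receptors of the 10 peptides (19 genes, all tested) had 0 genes called in edgeR's test across the groups, 1 higher and 1 lower at an unadjusted p under 0.05, and a median log2 difference of -0.03. The lower was Sstr5, a somatostatin receptor, at 2.92 ± 0.22 CPM in less and 1.52 ± 0.90 CPM in more anxious mice (SD), with a log2 difference of -1.13 ± 0.37 (SE, adjusted p = 0.729). Vipr2 was highest in the anxious mice at 2.60 ± 1.02 CPM (adjusted p = 0.698), and Adcyap1r1, the PACAP receptor, had a log2 difference of -0.25 ± 0.11 (adjusted p = 0.802). Of 45 other neuropeptide precursors 39 were tested, 0 were called, and 5 were higher and 1 lower at an unadjusted p under 0.05, with a median of 0.16. The smallest p-values belonged to Ucn, at 0.192 CPM in less and 0.620 CPM in more anxious mice (adjusted p = 0.447), Calca (0.382 and 0.773 CPM) and Nppc (3.68 and 5.88 CPM). In these counts, higher and lower give the sign of the log2 difference between more and less anxious mice. The p covers any change across the 3 groups. Of all 26963 genes tested, 1064 were higher and 648 lower at an unadjusted p under 0.05, together 6.35%.

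Genes of peptide processing and dense-core granules (16 tested) likewise had 0 calls and a median of -0.08. At an unadjusted p under 0.05, 2 were higher and 0 lower, compared with 1064 and 648 of all 26963 genes. Pcsk1n, which encodes the proSAAS inhibitor of a prohormone convertase, was at 156 ± 27.2 CPM in less, 230 ± 45.8 CPM in anxious and 401 ± 81.8 CPM in more anxious mice. Its log2 difference of 1.33 ± 0.19 had an adjusted p of 0.0804 in edgeR. Vgf, a granule protein precursor, was at 196 ± 28.8 CPM in less and 272 ± 40.7 CPM in more anxious mice (log2 difference 0.45 ± 0.12, adjusted p = 0.544). Pcsk1 itself had a log2 difference of -0.21 ± 0.11 (adjusted p = 0.854).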

How the data were processed

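Amygdala mRNA of 12 mice was sequenced with single-end reads of 75 bp. The authors estimated transcript abundance with Salmon, summed it to genes with tximport and deposited estimated counts (expected counts) without normalization, as whole numbers. Tool versions, annotation release and strand use in the counting are not given in the sources used here. The submitters' notes name mm10.

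Rows were mapped to symbols with GENCODE M21 (47310 of 47729 genes had an entry). All 12 columns were used, mouse 5 only where named. edgeR 4.0.16 (quasi-likelihood F-test, robust, TMM, at least 10 reads in total over 11 mice) tested both group coefficients with PC1 of variance-stabilized counts as covariate, and each standardized behavior measure without covariate. On PC2 of these counts, more anxious mouse 6 (0.32) lay on the less anxious side of anxious mice 1 (-4.92) and 11 (-2.98). The order of the study's groups was thus not fully reproduced. Benjamini-Hochberg adjusted p-values under 0.05 over all genes were called. DESeq2 1.42.0 was an alternative. log2 CPM used a prior count of 2. Correlations used 100000 permutations, two-sided, and are not adjusted for the 70 relations. Python 3.11.15, R 4.3.3, scipy 1.17.1 and matplotlib 3.10.9 were used.

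Alternatives covered size factors, count filter, robust option, covariate, coding of groups, ranks, mouse 5 and each mouse left out, and the GC and length balances, which were added after seeing the data. The balances are the median log2 CPM deviation of the 25% of genes highest in GC content or length minus that of the 25% lowest. All 10 members were to be named, with their 3 most similar genes (1 of these is not reported here) and at most 3 genes per list with the smallest p. Markers of the other tissues were named only where beside a member's value, and Penk as a gene on both the striatal and the central amygdala list. The members and lists were chosen with earlier results of these data known. The tests were checked on simulated counts with 200 changed genes. The simulated log2 changes were larger than those of the members, so power at the members' sizes was not checked. Each library is 1 mouse, so p-values measure a spread in which differences of mouse, dissection and library cannot be told apart. The group p-values also rest on groups cut from the same expression data. Promoters are RefSeq windows of GRCm38.p6. Sequence of Grp and of the peptides is not reported here.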

Additional observations from a re-analysis of the deposited data

Results flagged for a closer look

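Within the groups of 4 mice, 2 of 20 sets of levels held a mouse far from the others, by the share of the range that lay between it and its nearest neighbor (Dixon's test at the 95% level). Chance flags about 1 in 20 such groups. Vip was at 29.3 CPM in anxious mouse 11, compared with 24.3 to 25.0 CPM in the other anxious mice, a gap of 0.849 of the range. Tac1 was at 39.6 CPM in anxious mouse 1, compared with 25.8 to 26.3 CPM in the others, a gap of 0.960 of the range. The sum of 8 striatal markers was 599 CPM in mouse 1 and 293 to 328 CPM in the other anxious mice. Central amygdala markers, which share Penk with these, summed to 711 CPM in mouse 1 and 400 to 482 CPM in the other anxious mice. The part of either sum in the Tac1 value was not tested.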

How the results depend on the processing

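The 10 members gave 0 calls in edgeR under the settings as reported, and 3 of their fitted values crossed the threshold, all in DESeq2. These were Cck across the groups (adjusted p = 0.0119) and Vip on the box:zone ratio at 10 min (0.00323) and 5 min (0.0269), and the cause was not tested. The log2 differences that changed sign were at most 0.24 in size in the reported fit. With the GC balance they were -0.22 for Npy, 0.12 for Nts and -0.32 for Grp, and with the length balance -0.14 for Adcyap1 and -0.21 for Grp. Vip was at 0.0019 without a count filter and 0.0064 with filterByExpr, and Adcyap1 at -0.012 with the groups as a number. Without each mouse in turn, the difference ran from -0.23 to 0.22 for Adcyap1, -0.11 to 0.32 for Grp, -0.14 to 0.19 for Npy and -0.16 to 0.17 for Vip, so these 4 changed sign. The difference ran from 0.25 to 0.64 for Sst, 0.65 to 1.14 for Cck, -0.86 to -0.31 for Tac1, -0.88 to -0.32 for Tac2 and 0.18 to 0.76 for Cartpt. These 5 and the 12 slopes kept their sign in every setting run, but not their size. The slope of Cartpt on entries was -0.17 without mouse 2 and that on the 5-min ratio -0.52 without mouse 3. The slope of Cck on open time was -0.18 without mouse 9, and that of Npy on the 10-min ratio was -0.11 with PC1 and -0.09 with the GC balance.

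Over all genes, the 2 calls across the groups became 9 without a count filter, 0 with filterByExpr, 186 in DESeq2, 1 without the robust option, 0 without PC1, 22 with the groups as a number and 1 with either balance, and 0 to 4 without each mouse in turn. DESeq2 gave 5 calls for time in the light, 22 for distance, 43 for open time, 38 for entries and 165, 43 and 111 for the ratio at 3, 5 and 10 min. Without a count filter there were 4 for time, 1 for open time and 11, 7 and 10 for the ratio. Without the robust option there were 1 for time and 2 for open time, and with RLE size factors 1 for open time. With PC1 there were 0 for time and 2, 0 and 2 for the ratio, and with ranks 0 for time and 0 at 5 and 10 min. The GC balance gave 1 for time, 5 for open time and 3 at 10 min, and the length balance 4 for open time, 43 at 3 min and 6 at 5 min. With mouse 5 there was 1 for time, 1 for open time and 6 at 5 min. Leaving out each mouse gave 0 to 16 for time, 0 to 14 for distance, 0 to 3 for open time, 0 to 5 for entries, and 1 to 6, 1 to 5 and 1 to 9 for the ratio at 3, 5 and 10 min. The 6 of 70 Pearson relations with a permutation p under 0.05 became 10 with ranks, 3 with mouse 5 and 4 to 10 without each mouse in turn. Without mouse 6 they numbered 10, and no share of all genes by permutation p was computed. No paired analysis was possible because the labels give no number that ties mice of different groups.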

Other observations

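Mouse 5 had no group in the labels and was set aside by the study as an outlier. It had 176 CPM of Sst, 35.2 CPM of Npy and 8.78 CPM of Cartpt, each below the range of the 11 other mice. The lowest of those mice on the same scale had 182 CPM of Sst, 38.7 CPM of Npy and 9.46 CPM of Cartpt. Its levels of the other 7 members, such as Cck at 109 CPM and Vip at 29.1 CPM, lay within the range, and none lay above it.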
